A study of Homo sapiens with 4 samples.

Results

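The semaphorins are a family of secreted, membrane-spanning or lipid-anchored signalling proteins, and the plexins are their receptors. Both are best known from axon guidance, and in epithelial and tumour cells they also act on cell adhesion, cell migration and the actin cytoskeleton. A semaphorin binds the extracellular part of a plexin, in the class 3 semaphorins usually with a neuropilin as co-receptor, and the cytoplasmic part of the plexin then acts on small GTPases inside the cell. SEMA7A is held in the membrane by a GPI anchor. It binds PLXNC1 and also β1 integrins.

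The listed genes were SEMA7A, SEMA3A, SEMA3B, SEMA3C, SEMA3F, SEMA4B, SEMA4C, PLXNA1, PLXNB2 and PLXNC1, chosen by name, with the counts of all annotated transcripts of a gene added up. Of these 10 genes, 9 had transcripts that could be matched, among 34080 genes in all, and SEMA3B was not analysed here. All 9 passed the filter on low counts, which left 13569 genes to test. SEMA7A also has a qPCR primer pair in the study. Those primer genes were chosen partly on these libraries, so its change is not independent of the choice.

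The data came from HK-2, a human proximal tubule line made immortal in culture, carrying a Tet-On 3G system in which doxycycline turns on HA-tagged PRCC-TFE3, the fusion protein of a translocation renal carcinoma. Polyadenylated RNA was sequenced from 2 Doxy(-) libraries, grown without doxycycline, and 2 Doxy(+) libraries, grown with 0.2 microg/ml doxycycline for 24 h. Both groups carried the transgene and shared the medium with 1.5% serum, penicillin, streptomycin and, per the study's methods, the selection antibiotics blasticidin and puromycin. The sources do not say whether the line is 1 clone, nor whether the replicates came from separate cultures, so p-values measure only the spread between these libraries. Cells without the transgene were not analysed here, so doxycycline itself and PRCC-TFE3 cannot be told apart.

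The deposited estimated counts summed to between 14042545 and 16618401 reads per library, with 12654233 to 15012743 reads on matched genes. TFE3, which takes up reads of the transgene, stood at 66.9 and 69.0 CPM (counts divided by the TMM-adjusted library total and scaled to 1000000) without doxycycline and at 367 and 322 CPM with it, as the labels say. PRCC, the other fusion partner, had 50.2, 47.2, 47.7 and 60.1 CPM in Doxy(-) 1 and 2 and Doxy(+) 1 and 2. Of 12 proximal tubule markers, 3 (GGT1, MME and SLC5A2) exceeded 1 CPM in every library, while SLC22A6 and SLC22A8 had no counts, and 6 of 7 general renal epithelial markers did exceed it. The 5 endothelial markers summed to at most 1.05 CPM, 1 of 5 leukocyte markers (CD68) exceeded 1 CPM in every library (summed 144 and 150.03 CPM in Doxy(-), 191 and 189.6 CPM in Doxy(+)), and so did 3 of 7 fibroblast markers (COL1A1, DCN and LUM) and 3 of 4 neuronal ones (SNAP25, SYT1 and TUBB3). The proximal tubule markers summed to 79.8 and 80.4 CPM in Doxy(-) and to 96.7 and 103 CPM in Doxy(+), and the general renal epithelial markers to 2162 and 2157 CPM against 1843 and 1876 CPM. In that list CDH2, KRT19, KRT8 and KRT18 were lower and past the test, with log2 fold changes of -0.45, -0.41, -0.24 and -0.24. EPCAM (-0.20) and PAX8 (0.06) did not pass. In the other marker lists MME (1.31), GGT1 (0.25) and CD68 (0.37) were higher and past the test, and COL1A1 (-0.40) was lower and past it. These changes were picked out after the values were seen. The fibroblast markers summed to between 186 and 204 CPM and the neuronal ones to between 344 and 361 CPM over the 4 libraries, and the part of any of these markers in the results below was not tested. In bulk RNA, fewer cells with a transcript and less of it per cell cannot be told apart.

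First, the levels of the genes were compared per length, as TPM (counts divided by transcript length, then scaled to sum to 1000000 per library) summed over the transcripts of a gene. PLXNB2, a receptor of class 4 semaphorins, was the most abundant, with 162 and 174 TPM in Doxy(-) and 138 and 141 TPM in Doxy(+). SEMA3C, a secreted class 3 ligand, followed with 54.1 and 54.0 TPM in Doxy(-) and 39.0 and 38.5 TPM in Doxy(+). The libraries of these 2 genes overlapped with those of no other gene on the list.

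A middle group of 4 semaphorins could not be ordered without doxycycline. SEMA4B, a membrane-spanning ligand, stood at 27.1 and 27.2 TPM, SEMA7A at 29.0 and 22.8 TPM, SEMA3A at 23.0 and 20.2 TPM and SEMA4C at 23.0 and 19.4 TPM. Each neighbour in this order overlapped with the next, while SEMA4B lay above SEMA3A and SEMA4C. The sum of SEMA7A includes a short transcript, SEMA7A-204 (473 nt). It gave 4.53 of the 29.0 TPM in Doxy(-) 1 from 15.2 counts. The sums of SEMA4B in Doxy(-) also include short transcripts. Whether SEMA7A and SEMA4B overlap without the short transcripts of both genes was not tested. In Doxy(+), SEMA7A left this group. Its 14.1 and 11.9 TPM lay under the lowest library of SEMA3A (16.8 TPM) and of SEMA4C (18.8 TPM), and overlapped with PLXNA1 at 8.01 and 14.04 TPM.

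SEMA3F had between 7.59 and 12.2 TPM over the 4 libraries. PLXNC1 was the least abundant in every library, with 2.94 and 3.38 TPM in Doxy(-) and 2.71 and 3.98 TPM in Doxy(+). The ligand SEMA7A was thus at 25.9 ± 4.44 TPM beside 3.16 ± 0.311 TPM of its receptor PLXNC1 in Doxy(-), and at 13.0 ± 1.54 beside 3.35 ± 0.902 TPM in Doxy(+) (SD, n = 2 each).

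**Figure D1:**
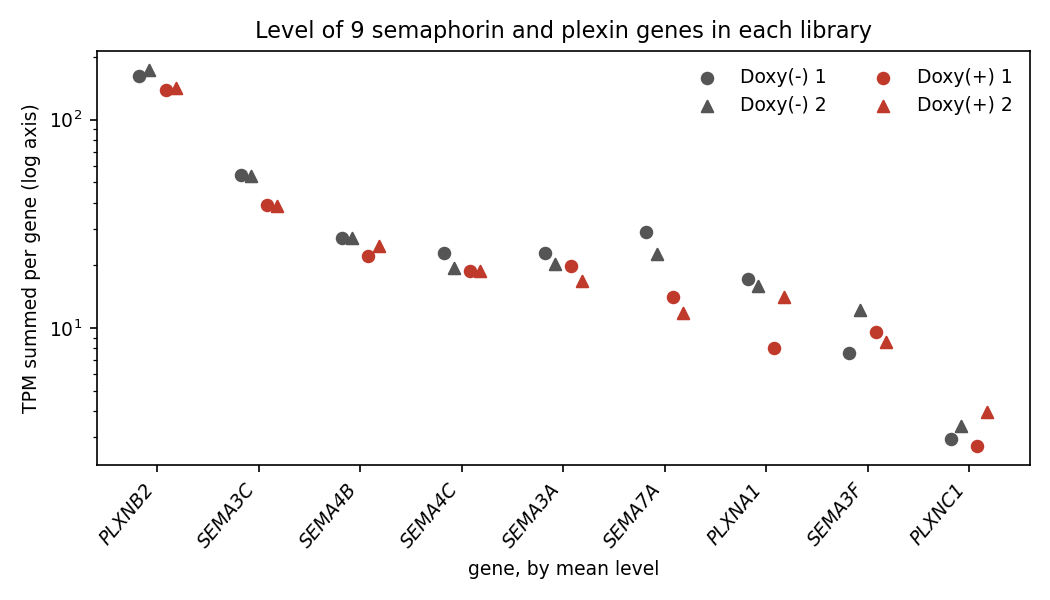
TPM summed per gene (log axis) for the 9 genes in each of the 4 libraries, Doxy(-) in grey and Doxy(+) in red, circles for replicate 1 and triangles for replicate 2. PLXNB2 lies between 138 and 174 TPM and PLXNC1 between 2.71 and 3.98 TPM, and SEMA7A has both Doxy(+) libraries below both Doxy(-) libraries.

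Next, each gene was compared between Doxy(+) and Doxy(-) in CPM to ask which parts of this ligand and receptor system differ once PRCC-TFE3 is on. SEMA7A, SEMA3C, PLXNA1 and PLXNB2 were lower in Doxy(+), and none of the 9 genes was higher at this threshold. By edgeR's quasi-likelihood test 4 of the 9 had an adjusted p under 0.05 and a negative log2 fold change, where 9.53% of all genes tested did, and 0 of 9 had a positive one, where 9.76% did (19.3% in either direction). Before adjustment 5 of the 9 were lower and 0 higher at p under 0.05, where 16.6% and 16.8% of all genes were. DESeq2 gave 4 lower and 0 higher at an adjusted p under 0.05, where 8.71% and 7.89% of all genes with an adjusted p were. The median log2 fold change of the 9 genes was -0.15, against 0.00062 over all genes tested. The list was drawn up with results of these data known, so the counts describe it and are no test of it.

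SEMA7A (ENSG00000138623.10, hg38 chromosome 15, 74409289 to 74433958, minus strand) had the largest change of the 9. It had 50.3 and 44.7 CPM in Doxy(-), against 25.6 and 22.9 CPM in Doxy(+), from 648 and 657 estimated reads against 330 and 308. Both Doxy(+) libraries lay well below both Doxy(-) libraries. The means were 47.5 ± 3.93 and 24.3 ± 1.90 CPM (SD, n = 2 each), a log2 fold change of -0.97 (SE 0.0905, 95% interval -1.19 to -0.75, edgeR adjusted p 0.00138). Of all genes tested, 1.31% had a log2 fold change this low or lower. The study called a gene at an adjusted p under 0.05 if its log2 fold change also exceeded 1 in size, and these are the limits used here. The interval of SEMA7A includes -1, and 0 of the 9 genes passed both limits by edgeR or by DESeq2, against 1.98% of all genes (1.5% higher and 0.479% lower). The study ran qPCR on genes shared by all its comparisons, that of these libraries included, and lists primers for SEMA7A. This implies that the study called SEMA7A at these limits, unlike edgeR and DESeq2 here. SEMA7A alone, 1 gene, passed both with length-scaled counts, without Doxy(-) 2 and without Doxy(+) 1.

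PLXNC1 (ENSG00000136040.9, chromosome 12, 94148577 to 94307675, plus strand), the plexin that binds SEMA7A, was not shown to change. Its CPM was 7.01 and 7.80 without doxycycline and 7.11 and 8.80 with it, and the groups overlapped. Its log2 fold change came to 0.10 (SE 0.17, edgeR adjusted p 0.715), with a 95% interval from -0.31 to 0.52. The values rest on only 90.4 and 115 estimated reads without doxycycline against 91.5 and 118 with it. A change of any size inside that interval remains compatible with them. Exons of PLXNC1 overlap those of CEP83 and of an unnamed gene on the opposite strand, and whether the counting used the strand is not given in the sources used here.

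Among the secreted class 3 semaphorins, SEMA3C fell and SEMA3A and SEMA3F did not pass the test. SEMA3C (chromosome 7, 80742538 to 80922359, minus strand), which signals through neuropilins with plexins, had 106 and 122 CPM in Doxy(-), against 86.6 and 82.8 CPM in Doxy(+). Its groups did not overlap, and its log2 fold change came to -0.43 (SE 0.0735, edgeR adjusted p 0.0113).

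SEMA3A (chromosome 7, 83955777 to 84492724, minus strand), a repellent of axons that binds NRP1, had 34.4 and 32.2 CPM without doxycycline and 30.4 and 29.6 CPM with it. Its log2 fold change was -0.15 (95% interval -0.32 to 0.02, edgeR adjusted p 0.203). SEMA3F (chromosome 3, 50155045 to 50189075, plus strand), which prefers NRP2, had 15.3 and 18.8 CPM without doxycycline and 17.4 and 18.8 CPM with it, with overlapping groups (log2 fold change 0.08, 95% interval -0.22 to 0.39, edgeR adjusted p 0.696).

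Neither of the membrane-spanning class 4 semaphorins passed the test. SEMA4B (chromosome 15, 90160604 to 90229679, plus strand) had 55.6 and 52.3 CPM in Doxy(-), against 50.6 and 53.8 CPM in Doxy(+), with overlapping groups (log2 fold change -0.05, 95% interval -0.20 to 0.11, edgeR adjusted p 0.659). SEMA4C (chromosome 2, 96859718 to 96870757, minus strand), a ligand of PLXNB2, had 44.6 and 42.2 CPM without doxycycline and 38.4 and 37.1 CPM with it. Its groups did not overlap, but its log2 fold change of -0.20 (SE 0.0615) had an edgeR adjusted p of 0.0713.

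The other plexins of the list, PLXNA1 and PLXNB2, were lower. PLXNA1 (chromosome 3, 126982693 to 127037389, plus strand), which transduces class 3 signals together with neuropilins, had 62.7 and 61.6 CPM in Doxy(-), against 44.9 and 49.6 CPM in Doxy(+), without overlap (log2 fold change -0.39 with SE 0.0663, adjusted p 0.0108 by edgeR). Its adjusted p was 0.0705 without library 1 of Doxy(+) and 0.170 with length-scaled counts. The estimate of its short transcript PLXNA1-204 (536 nt) was 27.5 and 23.3 without doxycycline but 1.73 and 19.2 with it, and a value per length weighs such a transcript heavily.

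PLXNB2 (chromosome 22, 50274979 to 50307646, minus strand) differed less, with 478 and 486 CPM without doxycycline and 433 and 434 CPM with it. Its log2 fold change came to -0.15 (SE 0.0288, edgeR adjusted p 0.0162), and the adjusted p was 0.129 without Doxy(+) 1 and 0.127 without Doxy(+) 2. For SEMA3C it was 0.0577 without Doxy(+) 2, so of the 4 lower genes SEMA7A alone passed in each of the 4 fits that left out a library. With length-scaled counts the log2 fold change of PLXNB2 was -0.30 (SE 0.0520, edgeR adjusted p 0.0196), outside its 95% interval of -0.22 to -0.08 in the main fit. In 6 of the 9 genes the libraries of the groups did not overlap, all 6 lower in Doxy(+), where 30% of all genes tested were apart in that direction and 31.1% in the other.

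**Figure D2:**
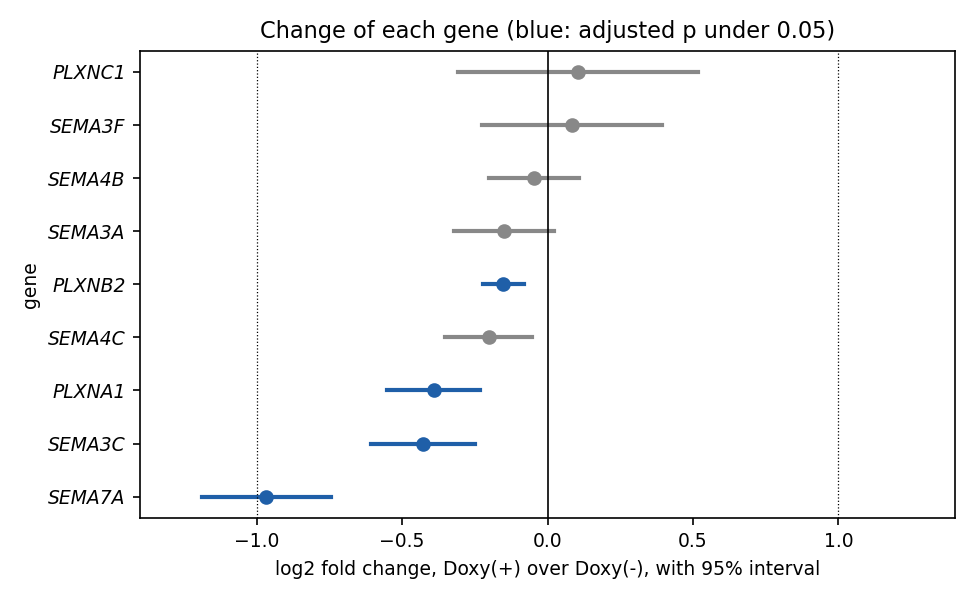
Log2 fold change of the 9 genes, Doxy(+) over Doxy(-), as points with 95% intervals, blue where the edgeR adjusted p is under 0.05. SEMA7A, at -0.97, lies apart from the other 8 genes, whose estimates run from -0.43 to 0.10, and the dotted lines mark a log2 fold change of 1 in either direction.

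The change of SEMA7A was then set against that of each other gene within the same libraries. The measure was log2 CPM of SEMA7A minus log2 CPM of the other gene, tested between the groups with limma across all genes, in 8 pairs. Relative to PLXNC1, SEMA7A stood at 2.82 and 2.49 in Doxy(-) and at 1.82 and 1.37 in Doxy(+). The ligand thus lay closer to its receptor in both Doxy(+) libraries, and the difference of the log2 fold changes was -1.06 (SE 0.22, limma adjusted p 2.5e-06). With the edgeR standard errors of both genes combined instead, it was -1.07 with a 95% interval from -1.56 to -0.58 and an adjusted p of 0.0036.

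Among the other 7 genes, the difference to SEMA7A also passed with limma in each pair, though not under every alternative. The difference was smallest against SEMA3C, at -0.54 (SE 0.159, limma adjusted p 0.000883), and against PLXNA1, at -0.57 (SE 0.164, limma adjusted p 0.000628). It was largest among these against SEMA3F, at -1.05 (SE 0.182, limma adjusted p 2.09e-08). Against SEMA3A it was -0.81, against SEMA4B -0.91, against SEMA4C -0.76 and against PLXNB2 -0.81. In each pair both Doxy(+) libraries lay below both Doxy(-) libraries, and all 8 passed with the combined standard errors. The pairs with SEMA3C and PLXNA1 were lost, leaving 6 of 8, with length-scaled counts (limma adjusted p 0.0815 and 0.236) and with limma on log2(TPM + 0.1) (adjusted p 0.0848 and 0.241). That with SEMA3C was also lost without Doxy(-) 1 (limma adjusted p 0.131) and that with PLXNA1 without Doxy(+) 2 (limma adjusted p 0.0814), leaving 7 of 8 each time.

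These 8 of 8 have to be read against the background. The change of SEMA7A differed from that of 92.6% of all genes tested (92.2% with SEMA7A on the lower side), and from 89.1% with the combined standard errors, so such a difference was common among all genes. Each pair also shares the error of SEMA7A itself, and the limma p-values take the spread from all genes and so come out small. An exact permutation test of 2 against 2 libraries cannot go below p = 0.333.

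**Figure D3:**
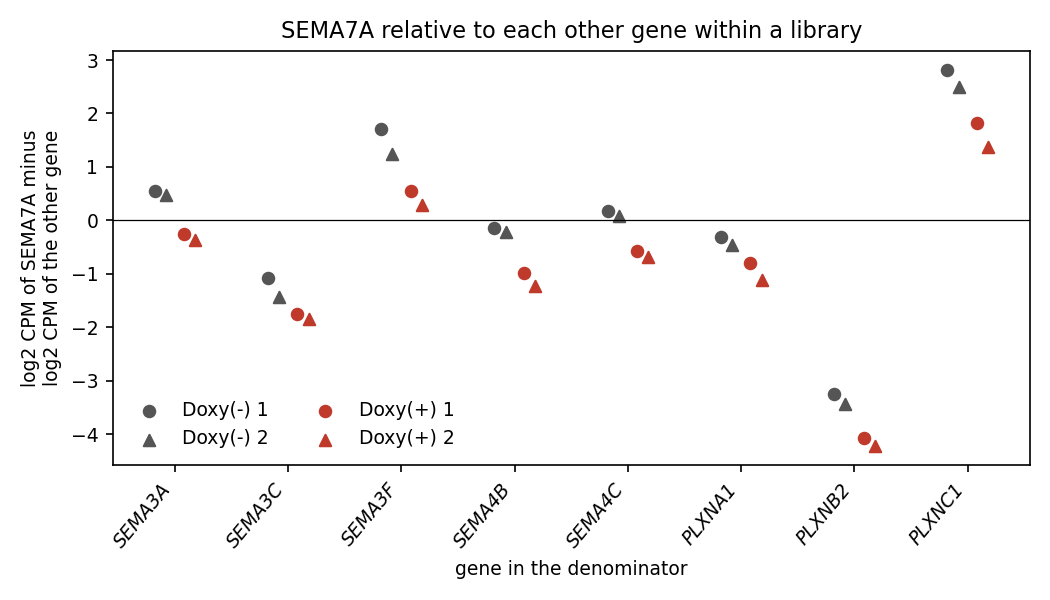
Log2 CPM of SEMA7A minus log2 CPM of each of the 8 other genes, per library, Doxy(-) in grey and Doxy(+) in red. In all 8 columns the red points lie below the grey ones, as for PLXNC1 with 2.82 and 2.49 against 1.82 and 1.37.

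With PLXNC1 as the reference, 1 of 8 pairs passed, the one with SEMA7A, where 3.8% of all genes tested passed. With the edgeR standard errors combined, 0 of 8 passed, and 0.00737% of all genes did. Before adjustment 3 of these 8 edgeR comparisons had a p under 0.05, at 0.00242 for SEMA7A, 0.0335 for SEMA3C and 0.0406 for PLXNA1. The adjusted p of the pair SEMA7A and PLXNC1 was then 0.254, against 0.0036 with SEMA7A as the reference, because it is adjusted over other genes. PLXNC1 minus SEMA3C differed by 0.52 (limma adjusted p 0.26) and PLXNC1 minus PLXNA1 by 0.49 (limma adjusted p 0.33). A difference between PLXNC1 and any of the other 7 genes was thus not shown. The count of pairs with PLXNC1 that passed with limma was 0 without Doxy(-) 1 or Doxy(-) 2, and 2 without Doxy(+) 1.

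The sum of SEMA7A was then taken apart into its annotated transcripts. Of 4 transcripts, SEMA7A-202 (3228 nt) held between 72.1% and 82.7% of the estimated count. From 498 and 543 counts without doxycycline and 238 and 250 with it, its level was 17.7 and 16.8 TPM against 8.71 and 8.77 TPM. SEMA7A-203 (2304 nt) was also lower, at 6.80 and 4.80 against 4.67 and 2.81 TPM. The longest, SEMA7A-201 (3885 nt), is marked in the annotation as the representative (canonical) transcript of the gene, yet was listed at 0 in every library. The short retained-intron transcript SEMA7A-204 held at most 15.2 counts. Per length its level was 4.53 and 1.13 TPM in Doxy(-) and 0.687 and 0.308 TPM in Doxy(+). Both coding transcripts with reads therefore lay lower in Doxy(+), with no overlap of the groups, though narrowly for SEMA7A-203.

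For PLXNC1, the full-length PLXNC1-201 (7346 nt) held 62.0 and 71.8 counts without doxycycline against 66.2 and 83.0 with it, and the shorter PLXNC1-202 (1813 nt) held 27.5 and 40.4 against 14.4 and 26.1. Scaled for depth, PLXNC1-201 was at 0.951 and 0.960 TPM against 1.05 and 1.25 TPM, and PLXNC1-202 at 1.78 and 2.28 against 0.964 and 1.67 TPM. Both Doxy(+) libraries were thus higher for PLXNC1-201 and lower for PLXNC1-202, at counts this low. How far such estimates can shift is seen in SEMA4B-202, a coding transcript given 179 and 209 counts in Doxy(-) but 149 and 0.000176 in Doxy(+), while SEMA4B as a whole had a log2 fold change of -0.05. These estimates depend on the division of shared reads among transcripts by the authors' software, and were not tested.

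**Figure D4:**
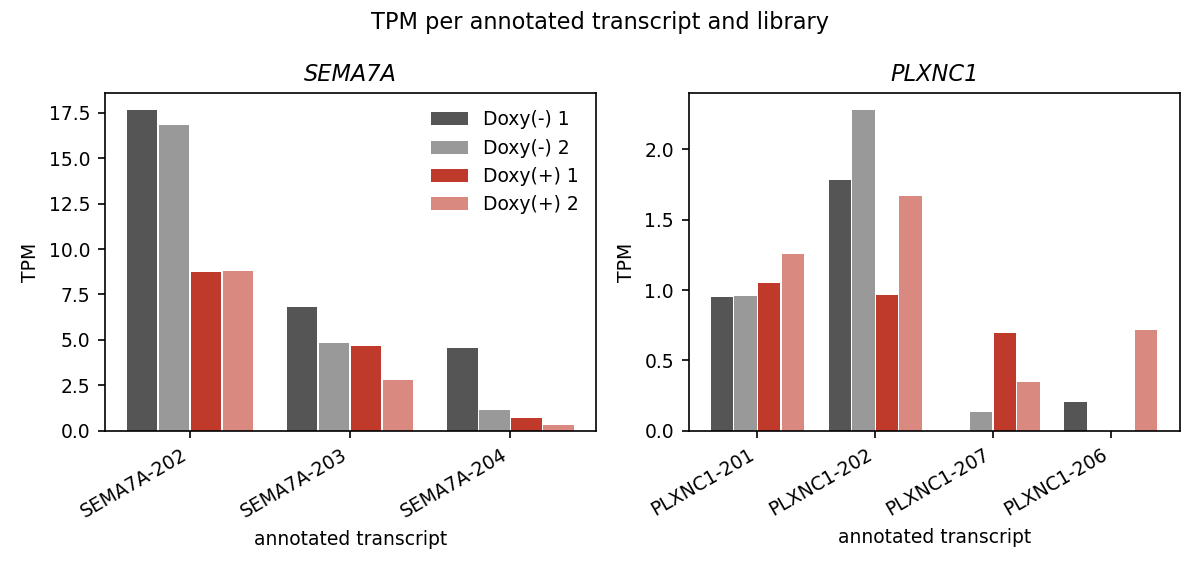
TPM of each annotated transcript with a mean of at least 1 count, per library, for SEMA7A (left) and PLXNC1 (right), Doxy(-) in grey and Doxy(+) in red. Solid bars are replicate 1 and paler bars replicate 2. SEMA7A-202 has 17.7 and 16.8 TPM in Doxy(-) but 8.71 and 8.77 in Doxy(+), while PLXNC1-201 and PLXNC1-202 differ in opposite directions.

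TFE3 and its relatives bind E-box letters such as CACGTG and CATGTG in DNA, so the promoter windows of the listed genes were searched for these letters on both strands. RefSeq (GRCh38.p14) held 20 windows of 300 bases, from 250 before to 50 after a start site, for 9 of the 10 genes, SEMA3B included. SEMA3A had no entry. CACGTG occurred in 0 of the 20 windows, against 7.26% of 35116 windows in all, and so did the longer TCACGTG, against 3.71%. CATGTG (or its reverse complement) occurred in 2 windows, against 11.1% of all, 1 of SEMA3F and 1 of PLXNB2. A missing match says only that these letters are not in these windows.

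The bases before the start site are printed for SEMA7A and PLXNC1, as the ligand and receptor compared above. For PLXNB2 the far end of the window is given, where its matches lie. Capitals mark GGGCGG or its reverse complement in the first pair, a GC box letter run looked for after the windows had been seen, and CATGTG or its reverse complement in PLXNB2.
SEMA7A, chr15:74433959-74434208, minus strand: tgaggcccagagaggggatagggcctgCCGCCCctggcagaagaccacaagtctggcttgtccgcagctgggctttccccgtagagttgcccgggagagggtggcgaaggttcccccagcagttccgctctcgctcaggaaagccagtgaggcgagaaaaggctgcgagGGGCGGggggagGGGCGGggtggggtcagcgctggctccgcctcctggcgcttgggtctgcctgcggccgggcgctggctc
PLXNC1, chr12:94148327-94148576, plus strand: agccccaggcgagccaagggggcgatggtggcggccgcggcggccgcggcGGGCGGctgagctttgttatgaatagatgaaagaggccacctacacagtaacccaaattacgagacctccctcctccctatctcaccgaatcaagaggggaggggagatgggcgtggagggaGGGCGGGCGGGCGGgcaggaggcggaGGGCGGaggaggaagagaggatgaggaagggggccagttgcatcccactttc
PLXNB2, chr22:50301890-50301919, minus strand: tgCACATGTGtggtCATGTGtgcaagtggt
The GC box letters were found 3 times in the SEMA7A stretch and 5 times, in part overlapping, in that of PLXNC1, and neither stretch holds any of the E-box letters searched. The GC box letters lie in 15 of the 20 windows, and in 45.0% of all windows. Of the PLXNB2 matches, the first pair overlap each other.

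Beyond the 10 genes, the pathway was followed through 5 lists. Of 13 other semaphorins, 9 passed the filter, and 1 rose and 1 fell, where 9.76% of all genes tested rose and 9.53% fell. SEMA5A, a membrane-spanning semaphorin, fell from 47.5 and 47.1 to 34.8 and 37.7 CPM (log2 fold change -0.38 with SE 0.0635, adjusted p 0.0101 by edgeR). SEMA4D, a ligand of PLXNB1, rose from 37.8 and 41.1 to 50.5 and 48.1 CPM (log2 fold change 0.32 with SE 0.0669, adjusted p 0.0227 by edgeR). The other 7 tested did not pass. Before adjustment 2 of the 9 were higher and 2 lower at p under 0.05, where 16.8% and 16.6% of all genes were. SEMA6B and SEMA4G, named after their values were seen, had larger estimates at low levels. SEMA6B had 2.60 and 4.68 against 6.15 and 8.07 CPM (0.94, edgeR adjusted p 0.0850). SEMA4G had 1.59 and 1.89 against 0.862 and 1.04 CPM (-0.86, edgeR adjusted p 0.147). Neither the call of SEMA5A nor that of SEMA4D held in every fit that left out a library. Without a Doxy(+) library the shares of all genes called dropped as well. The call of SEMA4D was also lost without Doxy(-) 1, where the share of all genes called higher dropped far less. SEMA6D, among the 4 not tested, had 0 counts in all 4 libraries, which allows up to 3 counts, or between 0.204 and 0.233 CPM per library. That limit covers counting error only.

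Of 6 other plexins, 4 were tested and 1 fell, where 9.53% of all genes tested fell. PLXNA3, a close relative of PLXNA1, went from 119 and 121 to 104 and 94.4 CPM (log2 fold change -0.28 with SE 0.0568, adjusted p 0.0208 by edgeR). Its exons overlap LAGE3 on the opposite strand. It did not pass without Doxy(+) 2, where the share of all genes called dropped as well. PLXND1, the receptor of SEMA3E, had 101 and 99.9 CPM without doxycycline and 109 and 117 CPM with it, with an edgeR adjusted p of 0.0663. The medians were 0.13 for the 9 semaphorins and -0.25 for the 4 plexins.

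The neuropilins were both lower. NRP2 fell from 205 and 212 to 131 and 127 CPM, a log2 fold change of -0.69 (SE 0.0399, adjusted p 0.000308 by edgeR), and NRP1 from 138 and 145 to 107 and 110 CPM (-0.39, SE 0.0454, edgeR adjusted p 0.00308). Of the integrin subunits that bind SEMA7A, ITGB1 fell from 1163 and 1221 to 1002 and 1015 CPM (-0.24, SE 0.0328, edgeR adjusted p 0.00506). Its partner ITGA1 had overlapping groups, at 27.3 and 30.3 against 28.6 and 32.0 CPM (0.07, edgeR adjusted p 0.627). MET, a receptor kinase that pairs with B-type plexins, had a log2 fold change of -0.13 and an edgeR adjusted p of 0.0506. In this list of 10 genes, 8 were tested, 3 fell and 0 rose, while before adjustment 4 were lower and 1 higher at p under 0.05 (ERBB2, named after its value was seen, with a log2 fold change of 0.18), and DESeq2 gave 4 lower and 0 higher. Over all genes 9.53% fell and 9.76% rose, before adjustment 16.6% and 16.8%, and by DESeq2 8.71% and 7.89%.

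Downstream of the plexins, the changes went both ways. Of 37 intracellular effectors, 34 were tested, 5 rose, 7 fell and 22 did not pass, with a median log2 fold change of 0.02, where 9.76% of all genes rose and 9.53% fell. Without Doxy(+) 1 or Doxy(+) 2, 3 rose and 4 fell, where 4.64% or 4.92% of all genes rose and 4.05% or 4.61% fell. MICAL2, an enzyme that oxidises actin, fell from 444 and 456 to 223 and 240 CPM (log2 fold change -0.96 with SE 0.0445, adjusted p 0.000173 by edgeR). DPYSL3, a member of the collapsin response mediator family, fell from 129 and 126 to 67.3 and 68.6 CPM (-0.91, SE 0.0458, edgeR adjusted p 0.000211). MRAS, a Ras-related GTPase named after its values were seen as the single effector past both limits, rose from 60.5 and 65.6 to 137 and 133 CPM (1.10, SE 0.0556, edgeR adjusted p 0.000211).

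Of 7 proteases that cleave semaphorins, 6 were tested, 1 rose and 1 fell, where 9.76% of all genes tested rose and 9.53% fell. ADAM10 fell from 195 in both libraries to 162 and 164 CPM (log2 fold change -0.25 with SE 0.0348, adjusted p 0.00522 by edgeR). ADAM17, its close relative, rose from 101 and 103 to 130 and 125 CPM (0.32, SE 0.0451, edgeR adjusted p 0.00576). Neither call held without Doxy(+) 1, where the share of all genes called dropped as well.

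**Figure D5:**
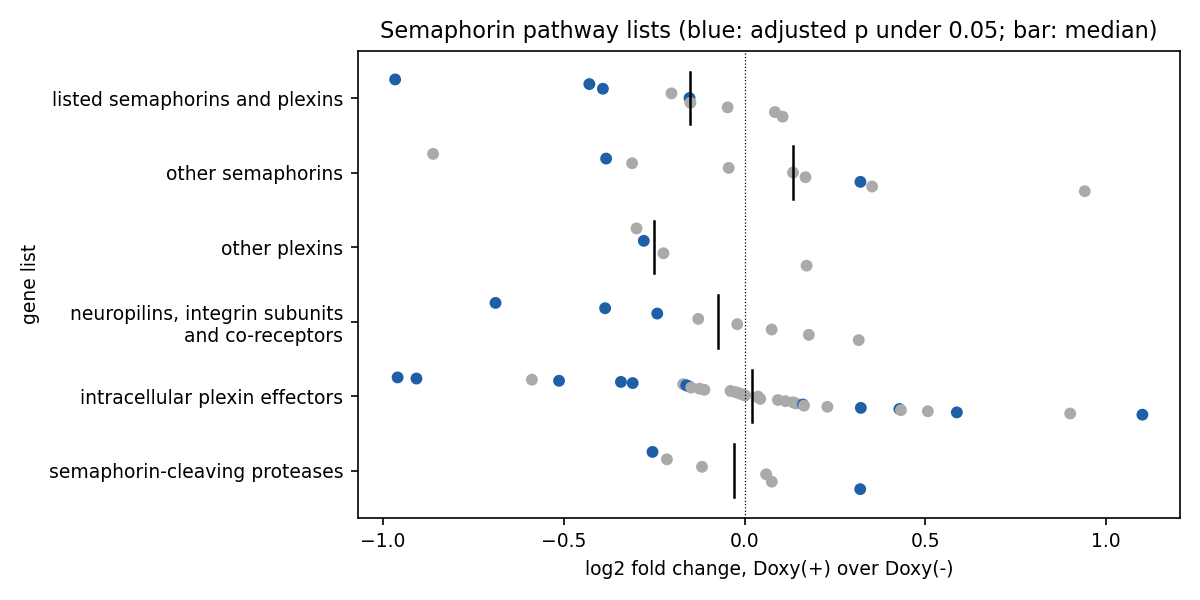
Log2 fold change of every tested gene in the listed semaphorins and plexins and in the 5 pathway lists, blue where the edgeR adjusted p is under 0.05, with a bar at each median. SEMA7A at -0.97 is the lowest of the semaphorins and plexins, NRP2 at -0.69 the lowest co-receptor, and the effectors spread from -0.96 to 1.10.

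The genes nearest in pattern were looked for among those with a mean of at least 10 CPM, by the root mean square difference of centred log2 CPM over the 4 libraries. For SEMA7A the nearest of 9609 genes were EFEMP1 (0.0222), the unnamed ENSG00000248710 (0.0282), HBEGF (0.0526), MYCBP (0.0597) and TNFRSF19 (0.0683). For PLXNC1 they were MMAB (0.0165), BCL6 (0.0325), MNT (0.0331), ESCO1 (0.0339) and CYSLTR1 (0.0347), with log2 fold changes from 0.06 to 0.17. With 4 libraries in 2 groups, a like pattern means little more than a change of like size.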

How the data were processed

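Per the labels and the study's methods, single-end reads were trimmed with Trim Galore 0.6.6 (cutadapt 2.5) and aligned to hg38 with STAR 2.7.9a. The study's methods name RSEM for TPM and DESeq2 for tests, while the tables deposited by the authors have the columns that kallisto writes, with an expected count and a TPM for each of 180253 Ensembl transcripts per library. The quantifier's version and strand setting are not given in the sources used here. Estimated counts are not normalized, and TPM values sum to 1000000 per library. The deposited lengths were used for the length-scaled alternative.

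Through GENCODE release 44, 150691 identifiers (83.6%) were matched to genes and summed. Unmatched identifiers held 9.66% to 9.89% of each library and were left out of sums and library sizes. Sums were rounded and tested with edgeR 4.0.16 (R 4.3.3, glmQLFit and glmQLFTest, TMM, filterByExpr, group only), with Benjamini-Hochberg adjustment. Passing means an adjusted p under 0.05, and both limits add a log2 fold change over 1 in size. Standard errors are those implied by the F statistic. Pairs of genes were compared with limma 3.58.1 on log2 CPM (prior count 2). The scripts were tested on simulated data. The listed genes and pathway lists were chosen with earlier results of these data known. Named are the listed genes, TFE3, both genes with the smallest p in each list, NRP1, NRP2, ITGB1, ITGA1, MET and the 5 genes nearest in pattern to SEMA7A and to PLXNC1. Alternatives were RLE factors, other filters, DESeq2 1.42.0, limma on TPM, handling of unmatched identifiers, length-scaled counts, a replicate block, leaving out each library, a stricter threshold and, chosen after seeing the data, the combined standard errors. Intervals cover 95%.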

Additional observations from a re-analysis of the deposited data

How the results depend on the processing

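In all 14 other fits run for each gene, the log2 fold changes of SEMA7A, SEMA3A, SEMA3C, SEMA4B, SEMA4C, PLXNA1 and PLXNB2 were negative. SEMA7A passed in all 14, between -1.05 and -0.88. That of PLXNC1 was negative in 1 and that of SEMA3F in 4, and neither passed in any. Of 351 values recomputed for 26 results, 283 stayed on the same side of the threshold or within 1.5 times of the count, and 0 reversed. The order by level per length was the same with CPM divided by effective length. That length comes from the same counts and transcript lengths as TPM, so this is no separate check.

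At an adjusted p under 0.01, 1 listed gene fell. The counts higher and lower were 0 and 0 for the other semaphorins and 3 and 3 for the effectors, with 0 other plexins lower. The share of all genes at that limit is not given here, so these counts cannot be read against it. With length-scaled counts PLXNA1 had -0.62 (edgeR adjusted p 0.170) and SEMA7A alone made 1 gene past both limits. Counts higher and lower were then 0 and 0 for the other semaphorins and 2 and 4 for the effectors, with 0 proteases lower. Of all genes 4.92% then rose and 4.23% fell. With limma on log2(TPM + 0.1), PLXNA1 had -0.64 (adjusted p 0.228) and PLXNB2 -0.26 (adjusted p 0.0634), and with log2(TPM + 1) -0.59 (adjusted p 0.225) and -0.26 (adjusted p 0.0600). With either, 2 listed genes fell, where 2.25% and 2.30% of all genes did, the other semaphorins had 0 and 0, the effectors 2 and 2, and 0 other plexins, 1 co-receptor and 0 proteases were lower. With unmatched identifiers tested beside the genes, SEMA3C had -0.43 (edgeR adjusted p 0.0679) and PLXNA1 -0.39 (edgeR adjusted p 0.0537), 2 listed genes fell, where 3.54% of all features did, 0 other semaphorins rose and 0 other plexins fell. Without a filter on low counts 2 other semaphorins rose, where 6.18% of all genes did. The number of genes differing from PLXNC1 was 0 with TPM, with length-scaled counts and with the combined standard errors.

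Leaving out 1 library at a time, which leaves a lone library that is assumed to vary like the other group, gave 2 to 4 listed genes lower (2 without Doxy(+) 1 or Doxy(+) 2, where the share of all genes called lower also dropped, from 9.53% to 4.05% and 4.61%) and 0 to 1 past both limits (1, SEMA7A, without Doxy(-) 2 or Doxy(+) 1). PLXNA1 ran from -0.47 to -0.32, PLXNB2 from -0.17 to -0.14 and SEMA3C from -0.53 to -0.33. Other semaphorins had 0 to 2 higher and 0 to 1 lower, other plexins 0 to 1 lower, effectors 3 to 6 higher and 4 to 7 lower, proteases 0 to 1 higher and 0 to 2 lower, and 0 to 2 genes differed from PLXNC1 and 7 to 8 from SEMA7A (6 with TPM or length-scaled counts). Over all genes, the deviations of libraries with the same number had a correlation of -0.0146. With 2 libraries per group this cannot show whether the numbers pair them. With a replicate block, 2 other semaphorins rose, where 9.45% of all genes did, and 3 genes differed from PLXNC1. No other count moved by over 1.5 times. Apart from the fewer samples, the cause of these shifts was not tested. The comparison of proteins was not run.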
